A study of Mus musculus with 24 samples.

Results

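A set of 10 genes that report on the RAS-ERK signalling pathway was followed across mouse embryonic stem cells (ESCs) expressing wild-type or mutant CTCF, the zinc-finger protein that shapes chromosome folding. The genes were taken by symbol from the deposited tables: the phosphatases Dusp6 and Dusp4, the inhibitors Spry2, Spry4 and Spred1, the ETS factors Etv4 and Etv5, and the immediate early genes Egr1, Fos and Ier3. All 10 were found among 55291 gene symbols. Total RNA was sequenced from 24 libraries, 2 for each of 12 groups, all from the E14Tg2a line (strain 129/Ola) carrying an auxin-inducible degron on endogenous CTCF. The 9 mutant groups, called R339Q, R342C, S354F, K365T, R377C, R377H, Q418R, R448Q and H455R ID, received 500 µM indole-3-acetic acid (IAA, which removes endogenous CTCF) and 1 µg/ml doxycycline for 2 days, and the doxycycline induced a transgene with the named CTCF substitution. The WT IAA group received IAA alone, so its CTCF was removed and no transgene was induced. The WT ID group received both agents and expressed a wild-type transgene, and the Untreated group was the WT line with neither agent. Each substitution is represented by 1 engineered line, and what belongs to the line and what to its substitution cannot be told apart. All 12 groups, untreated cells included, grew in serum with leukemia inhibitory factor, 3 µM of the GSK3 inhibitor CHIR99021 and 1 µM of the MEK inhibitor PD0325901.

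MEK is the kinase that phosphorylates and activates ERK, so every value here was measured while that step was being inhibited. In cells with an open pathway, growth factor receptors act through RAS, RAF and MEK on ERK, which enters the nucleus, switches on immediate early genes and relieves the repressor Capicua (CIC) from genes such as Etv4, Etv5 and Dusp6. The products of several targets feed back: DUSP6 and DUSP4 dephosphorylate ERK, and Sprouty and SPRED proteins restrain signalling upstream of it. In mouse ESCs autocrine FGF4 drives this pathway towards exit from the naive state, which is why a MEK inhibitor is part of naive culture.

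RefSeq promoters (assembly GRCm38.p6) could be matched for 6 of the genes, Dusp6, Spry2, Spred1, Etv5, Fos and Ier3, and 4 of their windows are shown because they hold TGAATG, the core of the sequences CIC binds. Bases lie 5′ to 3′ on the gene's strand and end just before its RefSeq start, except in Ier3. There the last 29 bases before the RefSeq start lie in an annotated exon and are left out. The capitals mark TGAATG, or CATTCA where it lies on the opposite strand, and in Fos also TGACGT and the opposite-strand form of TGAATGGA, which overlaps its TGAATG.
Dusp6 promoter, chr10:99262981-99263230, plus strand: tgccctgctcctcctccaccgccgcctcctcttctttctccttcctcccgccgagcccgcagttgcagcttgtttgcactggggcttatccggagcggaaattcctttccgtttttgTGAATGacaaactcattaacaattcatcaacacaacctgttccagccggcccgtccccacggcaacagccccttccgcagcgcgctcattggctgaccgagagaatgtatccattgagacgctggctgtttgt
Etv5 second promoter, chr16:22438369-22438618, minus strand: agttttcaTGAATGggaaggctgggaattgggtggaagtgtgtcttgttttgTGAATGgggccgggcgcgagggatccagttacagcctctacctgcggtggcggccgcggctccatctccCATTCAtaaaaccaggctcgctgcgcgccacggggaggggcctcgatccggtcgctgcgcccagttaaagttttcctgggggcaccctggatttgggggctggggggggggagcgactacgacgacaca
Ier3 promoter, chr17:35821463-35821683, plus strand: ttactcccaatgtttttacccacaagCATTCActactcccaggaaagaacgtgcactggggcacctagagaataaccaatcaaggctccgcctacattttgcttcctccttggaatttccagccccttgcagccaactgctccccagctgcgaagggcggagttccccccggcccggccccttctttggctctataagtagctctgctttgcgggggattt
Fos promoter, chr12:85473640-85473889, plus strand: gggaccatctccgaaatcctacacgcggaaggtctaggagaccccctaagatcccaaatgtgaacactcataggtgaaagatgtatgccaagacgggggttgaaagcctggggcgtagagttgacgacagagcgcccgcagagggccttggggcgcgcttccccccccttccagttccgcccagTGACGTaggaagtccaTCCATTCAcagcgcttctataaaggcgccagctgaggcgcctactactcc
Dusp6 has 1 TGAATG at -133 to -128 from its start. The second Etv5 promoter has 3, at -242 to -237, at -198 to -193 and, on the opposite strand, at -129 to -124. Ier3 has 1 on the opposite strand at -224 to -219, counted from its RefSeq start, which lies 29 bases past the end of the window shown. Fos has TGAATGGA on the opposite strand at -50 to -43 beside the cyclic AMP response core TGACGT at -66 to -61. On either strand, TGAATG occurs in 10.9% of 32851 promoters of 250 bases and 3 copies or more in 0.131%. TGAATGGA occurs in 1.01%, TGAATGAA in 1.08% and TGACGT in 6.47%. The ETS sequence CCGGAAGT (2.88% of promoters), the serum response element (1.47%) and the CTCF core (0.904%) were searched on both strands too. They were not found in the windows of these 6 genes. Only the 250 bases before each start were searched, so sites further upstream, in Fos or any other gene, would not have been seen. A match describes letters only and says nothing of occupancy.

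Libraries held 27761749 to 77141117 recovered reads, and mitochondrially encoded genes took 1.22 to 3.38% of them. The 10 ESC markers were abundant in every library, with summed levels of 8969 to 11652 TPM (a level per transcript length, scaled to the same total in each library) and Pou5f1 at 594 to 806 TPM. Summed over each list, markers of other fates were lower than the ESC markers. The sums were 38.8 to 98 TPM for formative and primed cells, 2.61 to 22.4 TPM for primitive endoderm and 14.1 to 33.8 TPM for mesendoderm. They were 27.5 to 70.7 TPM for neural ectoderm, 76.0 to 232 TPM for trophectoderm and 13.0 to 40.6 TPM for fibroblasts. The trophectoderm sum was highest in H455R, at 205 to 232 TPM. Krt8, a trophectoderm marker, ran from 15.6 to 100 TPM over the libraries. Fgf5, Elf5, Neurog2, Sox7, Mesp1, Col1a2, Col3a1 and Postn were among the markers that reached 0 TPM in at least 1 library. Nothing in the labels says that the 2 libraries of a group came from different cultures, and p-values therefore reflect the spread between libraries alone, which may be technical.

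Per gene length, Spry2 and Etv5 were by far the most abundant of the 10, with medians of 274 and 267 TPM over the 24 libraries. Etv4 and Spred1 followed at 32.3 and 28.7 TPM, then Fos at 14.3, Ier3 at 12.7, Dusp6 at 6.91, Spry4 at 2.25, Dusp4 at 1.97 and Egr1 at 0.434 TPM. The highest library exceeded the lowest 26.9-fold for Spry4 and 10.2-fold for Etv4, but only 1.45-fold for Etv5 and 1.52-fold for Spred1. In the 22 treated libraries all 10 genes passed the filter of a mean of at least 10 normalized counts, and all 10 varied among the 11 treated groups by limma's moderated F test at an adjusted p under 0.05. That was also true of 78.1% of the 18713 genes tested, so the count itself sets the 10 apart from little. By the size of F, 1.5% of tested genes exceeded Etv4, 8.21% exceeded Dusp6 and 9.66% exceeded Spry4, against 64.4% for Dusp4 and 62.9% for Egr1.

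**Figure D1:**
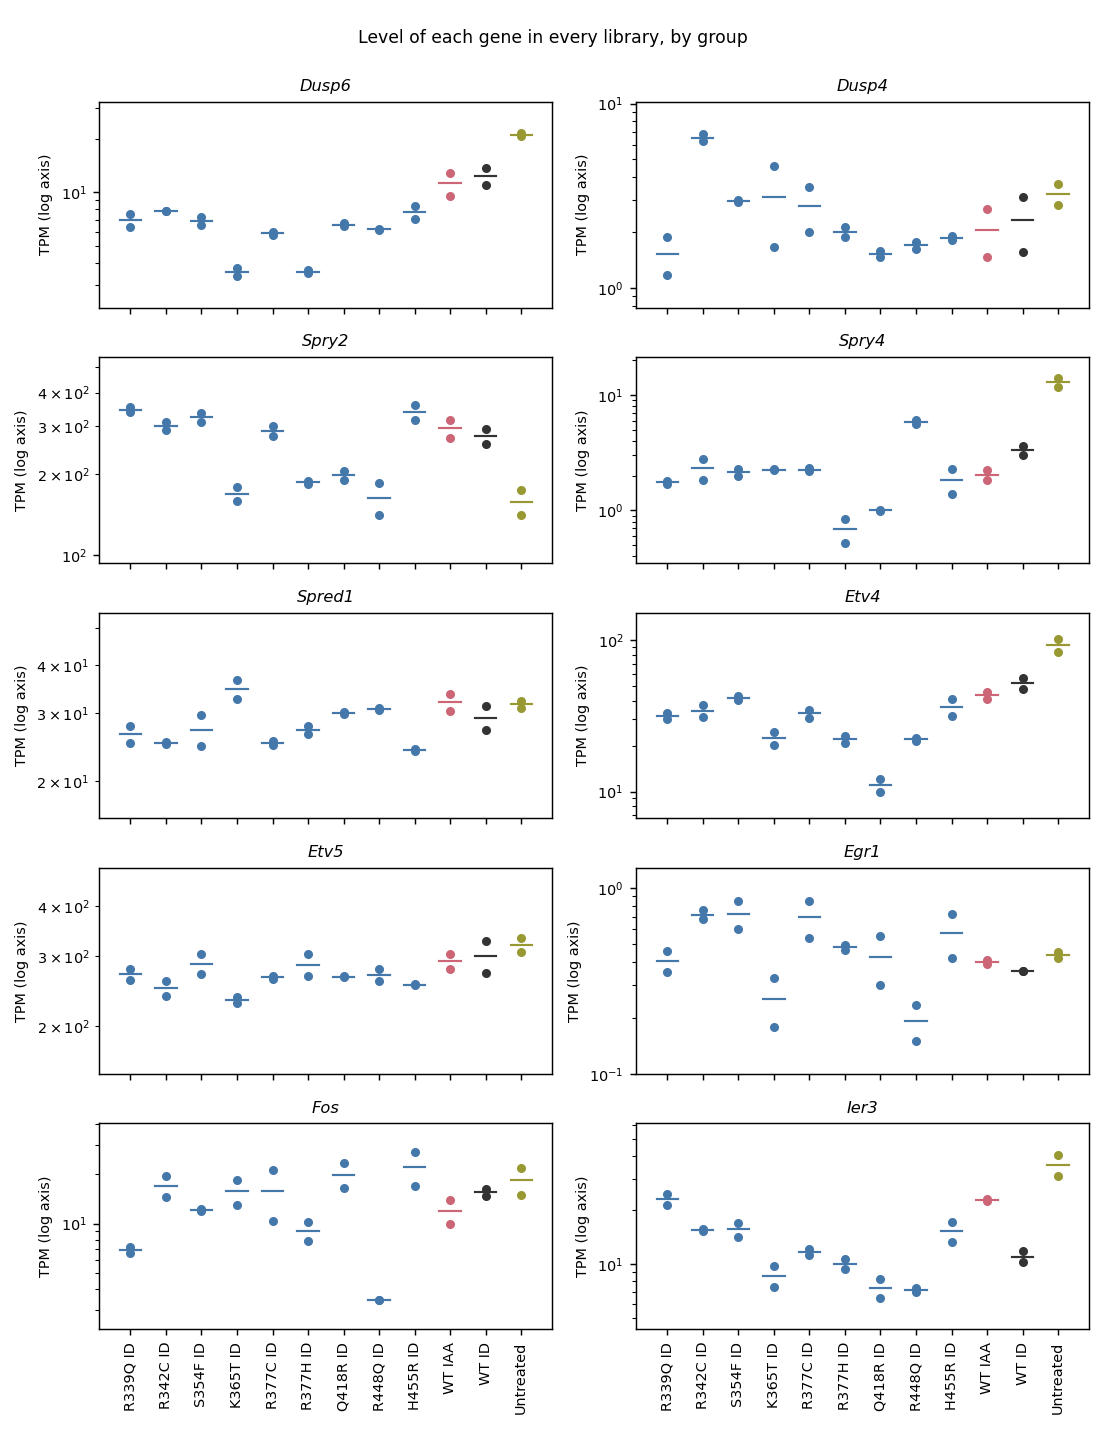
TPM on a log axis in every library of the 12 groups, 1 panel per gene, with points for libraries and a line for the mean of each group's 2 libraries. In the Dusp6 panel all 18 mutant libraries lie at 3.36 to 8.35 TPM, below the 4 WT IAA and WT ID libraries at 9.54 to 13.7 TPM and the untreated libraries at 20.8 and 21.6 TPM.

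Dusp6, the cytoplasmic phosphatase that acts on ERK itself (ENSMUSG00000019960.8, mm10 chromosome 10, 99263231 to 99267489), was lower in every mutant than in WT ID. Normalized counts were 147 and 167 in K365T, 160 and 155 in R377H and 234 and 250 in R377C, against 551 and 472 in WT ID. The other mutants lay higher, at 276 and 293 in S354F, 269 and 301 in R339Q, 286 and 292 in R448Q, 290 and 294 in Q418R, 292 and 319 in R342C and 349 and 283 in H455R. WT IAA had 527 and 396, and no mutant library reached the lowest library of WT IAA or WT ID. In limma, with Benjamini-Hochberg adjustment over all 18713 genes, the log2 fold change over WT ID was -1.70 ± 0.15 (standard error) in K365T with adjusted p = 1.0e-07 and -1.69 ± 0.15 in R377H with adjusted p = 9.3e-08. In R377C it was -1.07 (adjusted p = 0.00011), and in the other 6 mutants -0.84 to -0.69 (largest adjusted p = 0.0019 in limma, for H455R). These 9 tests share the 2 WT ID libraries. WT IAA did not pass, at -0.16 ± 0.15 with limma adjusted p = 0.51, and mutants were not tested against WT IAA. In order of mean TPM, R377H (3.55) and K365T (3.56) came lowest and overlapped, and R377C (5.85) and R448Q (6.17) stood apart from their neighbours. The 5 groups from Q418R (6.57) to R342C (7.84) each overlapped the next. In normalized counts R377C still stood apart, but R448Q (286 and 292) overlapped Q418R (290 and 294). On TPM the median log2 fold change of all genes in R448Q over WT ID was -0.17.

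Dusp4, the related nuclear phosphatase (ENSMUSG00000031530.6, chromosome 8, 34807297 to 34819894), rose in 1 mutant. R342C had 222 and 222 normalized counts, against 109 and 59.2 in WT ID. The WT ID libraries lay far apart from each other and both R342C libraries lay above them. The log2 fold change was 1.45 ± 0.39 (limma adjusted p = 0.012), but the call was lost without R342C replicate 1 (1.45, adjusted p = 0.064) and without WT ID replicate 2 (1.02, adjusted p = 0.17). K365T was more uneven than WT ID, with 63.5 and 178, and without its replicate 1 it passed at 1.14 (limma adjusted p = 0.032). Dusp4 lies on a chromosome whose tested genes were shifted as a whole in some lines: their median stood 0.47 above that of all genes in H455R, 0.45 in R448Q and 0.20 in K365T on the log2 scale. With each chromosome centred on its own median, Dusp4 was -0.72 in H455R and -0.65 in R448Q, against -0.26 and -0.20 before centring, and neither value passed.

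Sprouty and SPRED proteins block the relay from receptors to RAS and RAF. Spry2 (ENSMUSG00000022114.5, chromosome 14, 105891947 to 105896819) fell in 4 mutants. It had 4605 and 5270 normalized counts in K365T, 4368 and 5773 in R448Q, 5404 and 5597 in R377H and 5463 and 6248 in Q418R, against 6906 and 8439 in WT ID. None of these 8 libraries reached the lower WT ID library. Log2 fold changes were -0.63 ± 0.13 in K365T (adjusted p = 0.00073), -0.60 in R448Q (adjusted p = 0.00056), -0.47 in R377H (adjusted p = 0.0086) and -0.39 in Q418R (limma adjusted p = 0.030). The R377H call was lost without R377H replicate 1 (-0.45, limma adjusted p = 0.057) and without WT ID replicate 2 (-0.33, adjusted p = 0.15). The Q418R call was lost without Q418R replicate 1 (-0.29, limma adjusted p = 0.23) and without WT ID replicate 2 (-0.24, adjusted p = 0.30). The other 5 mutants ranged from 0.03 to 0.31 and did not pass. Of these R339Q passed as higher with quantile normalization (0.36, limma adjusted p = 0.031) and with only the 2 groups in the fit (0.31, adjusted p = 0.019). In TPM order the lower 4 groups and Untreated stood apart from WT ID and all groups above it.

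Spry4 (ENSMUSG00000024427.7, on chromosome 18) ranged most widely and moved in both directions. It had 35.3 and 57.6 normalized counts in R377H, 65.2 and 70.6 in Q418R and 437 and 397 in R448Q, against 221 and 199 in WT ID. R377H and Q418R lay wholly below WT ID and R448Q wholly above it. Fold changes on the log2 scale were -2.19 ± 0.24 in R377H (4.56-fold lower, adjusted p = 1.3e-06), -1.61 ± 0.24 in Q418R (adjusted p = 5.5e-05) and 0.99 ± 0.24 in R448Q (1.98-fold higher, limma adjusted p = 0.0021). It also fell in R339Q, with 108 and 109 counts (-0.94, adjusted p = 0.0081), and in H455R, with 88.2 and 139 (-0.91, limma adjusted p = 0.0088). Both of these calls rested on few libraries. R339Q no longer passed without R339Q replicate 1 (-0.93, limma adjusted p = 0.059) or WT ID replicate 1 (-0.86, adjusted p = 0.072), nor did H455R without H455R replicate 1 (-0.59, limma adjusted p = 0.16) or WT ID replicate 1 (-0.84, adjusted p = 0.075). In R342C, S354F, R377C and K365T the values were -0.64 to -0.47 and did not pass in limma, while R342C passed with quantile normalization (-0.81, adjusted p = 0.023) and in DESeq2 (-0.59, adjusted p = 0.043). Spry4 is overlapped on the other strand by the small RNA genes Gm27369 and Gm27804, and the strand setting of the counts is not given in the sources used here, so its counts are uncertain to that extent.

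Spred1 (ENSMUSG00000027351.14, chromosome 2, 117121374 to 117182279) changed little and in both directions. It rose in K365T, with 3451 and 3145 normalized counts, and in R448Q, with 3100 and 3135, against 2726 and 2538 in WT ID. It fell in R342C, with 2039 and 2192, and in H455R, with 2199 and 2074. The log2 fold changes were 0.32 ± 0.08, 0.25, -0.31 and -0.30 in that order (limma adjusted p = 0.0033, 0.014, 0.0069 and 0.0082). Every one of the 4 was lost on the TPM scale, where the values in the same order were 0.25, 0.08, -0.21 and -0.27 (limma adjusted p = 0.056, 0.52, 0.13 and 0.053). Relative to the median of all genes on that scale, which was -0.17 in R448Q, they were 0.34, 0.25, -0.29 and -0.29, about as large as in normalized counts. Leaving out 1 library also ended each call: K365T without WT ID replicate 2 (0.27, adjusted p = 0.0504), R448Q without R448Q replicate 1 (0.25, 0.054), R448Q replicate 2 (0.24, 0.070) or WT ID replicate 2 (0.19, 0.13). R342C lost it without R342C replicate 1 (-0.26, limma adjusted p = 0.071) or WT ID replicate 1 (-0.26, 0.077), and H455R without H455R replicate 2 (-0.26, 0.077) or WT ID replicate 1 (-0.25, 0.10).

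**Figure D2:**
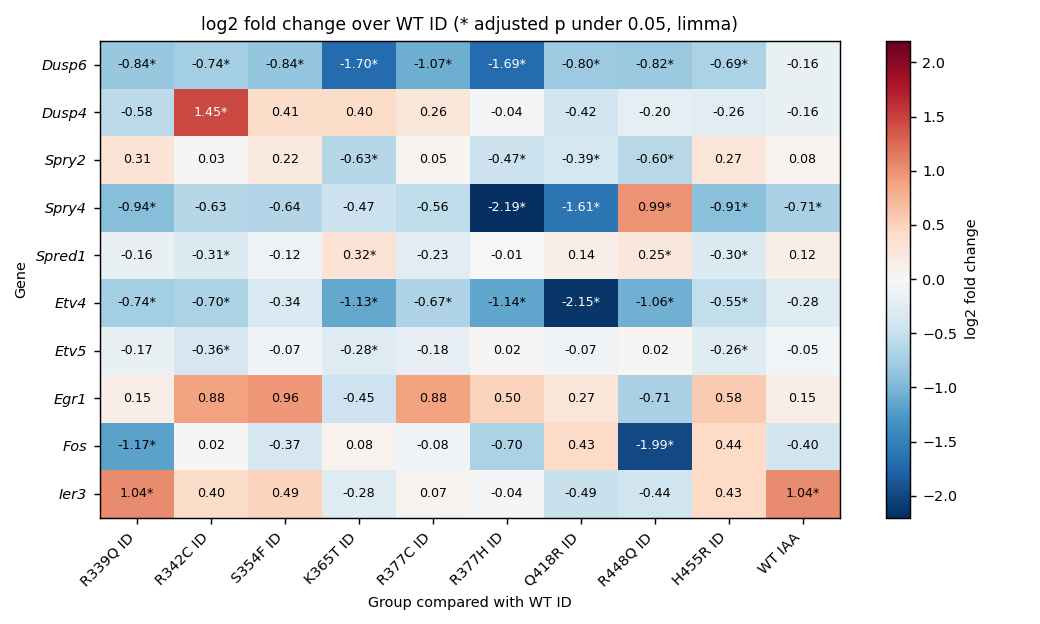
Log2 fold change of each gene in the 9 mutants and in WT IAA over WT ID, on a colour scale with red for higher and blue for lower, and an asterisk where limma's adjusted p was under 0.05. The Dusp6 row is blue with an asterisk in all 9 mutants and the Etv4 row in 8, while the Spry4 row runs from -2.19 in R377H to 0.99 in R448Q.

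ETV4 and ETV5 belong to the PEA3 group of ETS activators, whose genes CIC represses until ERK is active. Etv4 (ENSMUSG00000017724.14, chromosome 11, 101769742 to 101785371) fell in 8 mutants. It was lowest in Q418R, with 514 and 452 normalized counts, against 2244 and 2039 in WT ID. R377H had 915 and 1030, K365T 877 and 1094 and R448Q 997 and 1054, all under every WT ID and WT IAA library. Q418R gave a log2 fold change of -2.15 ± 0.12 (4.43-fold lower, limma adjusted p = 4.6e-10). R377H (-1.14, adjusted p = 5.5e-07), K365T (-1.13, adjusted p = 8.2e-07) and R448Q (-1.06, limma adjusted p = 4.0e-07) followed. R339Q, R342C, R377C and H455R lay at -0.74 to -0.55 (largest limma adjusted p = 0.0018, H455R). The H455R call was lost without H455R replicate 1 (-0.40, limma adjusted p = 0.054). S354F, with 1685 and 1703 counts, gave -0.34 and did not pass (limma adjusted p = 0.076), and WT IAA, with 1841 and 1697, gave -0.28 (adjusted p = 0.10, or 0.024 with only the 2 groups in the fit). In TPM order Q418R (11) stood alone at the bottom, and R448Q, R377H and K365T (22.1 to 22.6) overlapped one another below the remaining groups.

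The Etv4 values in a few lines sit on a shifted chromosome. The median of the 1375 tested genes of chromosome 11 stood 0.54 above that of all genes in R377H, 0.38 in K365T and 0.15 in R448Q on the log2 scale. With chromosomes centred, Etv4 was -1.67 in R377H and -1.49 in K365T, so both were larger falls than before centring. S354F became a call at -0.36 (limma adjusted p = 0.0498). The centred and uncentred values of Q418R were both -2.15.

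**Figure D3:**
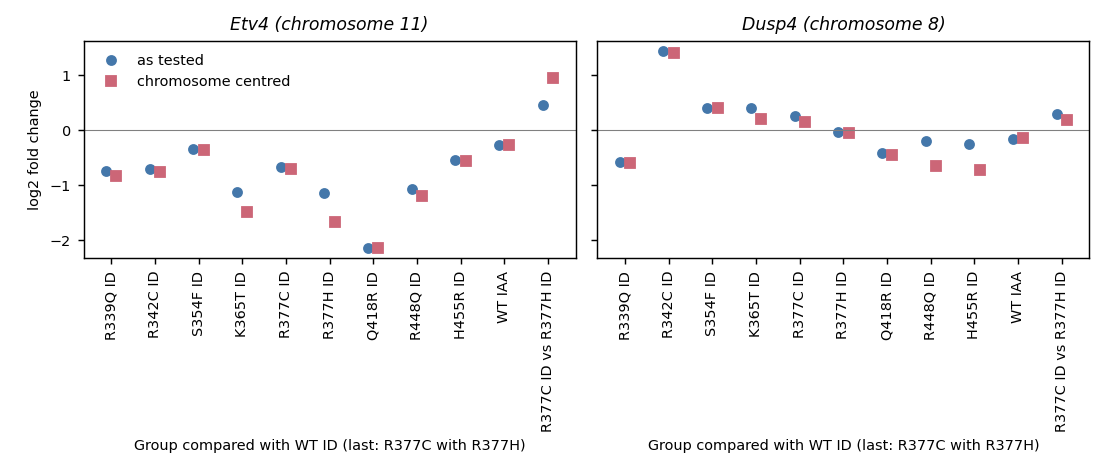
Log2 fold changes of Etv4 and Dusp4 as tested (circles) and with every chromosome centred on its own median (squares) in each comparison with WT ID and, last, in R377C against R377H. Etv4 moves furthest in R377H, to -1.67 when centred against -1.14 as tested, and Dusp4 in H455R, to -0.72 against -0.26.

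Etv5 (ENSMUSG00000013089.15, chromosome 16, 22381309 to 22439719) was abundant and nearly level. It had 12659 to 17712 normalized counts over the 18 mutant libraries, against 17197 and 15429 in WT ID. It fell in R342C (12659 and 12685), in K365T (13575 and 13261) and in H455R (13888 and 13304), all below both WT ID libraries. The log2 fold changes were -0.36 ± 0.07 (adjusted p = 0.0017), -0.28 (adjusted p = 0.0063) and -0.26 (limma adjusted p = 0.014). Chromosome centring ended the calls in K365T (-0.12, limma adjusted p = 0.23) and H455R (-0.21, adjusted p = 0.057). The TPM scale ended those in R342C (-0.26, limma adjusted p = 0.052) and H455R (-0.23, adjusted p = 0.077), where the values relative to the median of all genes were -0.33 and -0.25. K365T also lost its call without WT ID replicate 1 (-0.20, limma adjusted p = 0.11), and H455R without WT ID replicate 1 (-0.18, adjusted p = 0.20) or H455R replicate 2 (-0.23, adjusted p = 0.094).

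Immediate early genes are transcribed within minutes of a stimulus, without new protein synthesis. Fos, which encodes a subunit of the AP-1 factor (ENSMUSG00000021250.13, chromosome 12, 85473890 to 85477273), fell in 2 mutants. It had 121 and 122 normalized counts in R448Q and 212 and 216 in R339Q, against 445 and 528 in WT ID. Both groups lay wholly below WT ID. The log2 fold change was -1.99 ± 0.29 in R448Q (3.97-fold lower, limma adjusted p = 1.3e-05) and -1.17 ± 0.29 in R339Q (adjusted p = 0.0066). The R339Q call was lost without R339Q replicate 1 (-1.16, limma adjusted p = 0.052) and without WT ID replicate 2 (-1.05, adjusted p = 0.064). Replicates were less even in other groups, with 317 and 662 in R377C and 848 and 509 in H455R. None of the other 7 mutants passed, though R377H (-0.70, limma adjusted p = 0.087) did with only the 2 groups in the fit (adjusted p = 0.0019).

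Egr1, a zinc-finger factor induced through the serum response element, was barely expressed, at 10.1 to 51.7 normalized counts and 0.15 to 0.853 TPM over the 24 libraries. S354F had 51.7 and 34.7, R342C 40.4 and 39.4 and R377C 31.3 and 51.1, against 20.5 and 22.1 in WT ID. R448Q was lowest, with 10.1 and 15.7. Log2 fold changes ran from -0.71 in R448Q to 0.96 in S354F, and no mutant passed.

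Ier3 (ENSMUSG00000003541.6, chromosome 17, 35821684 to 35822923) is an early response gene that modulates ERK dephosphorylation and cell survival. It was the 1 gene of the 10 called as higher in WT IAA than in WT ID. Its TPM in WT IAA, 22.3 and 23.2, nevertheless lay below the 40.7 and 30.9 of Untreated. It had 331 and 348 normalized counts in WT IAA and 376 and 307 in R339Q, against 170 and 159 in WT ID. Both groups lay above every WT ID library and above every library of the other 8 mutants, whose highest was 259 in S354F. The log2 fold change was 1.04 ± 0.18 in WT IAA (2.05-fold, limma adjusted p = 0.00056) and 1.04 ± 0.18 in R339Q (adjusted p = 0.00042). The other mutants ranged from -0.49 in Q418R to 0.49 in S354F and did not pass. Q418R and R448Q came close, with limma adjusted p = 0.056 and 0.054, and on the TPM scale both passed as lower (-0.58, adjusted p = 0.013, and -0.61, adjusted p = 0.0048). The median of all genes on that scale was -0.084 in Q418R and -0.17 in R448Q, and relative to it Ier3 was -0.50 in Q418R and -0.44 in R448Q, much as in normalized counts (-0.49 and -0.44). On the TPM scale R342C passed as higher (0.50, limma adjusted p = 0.041), with 0.42 relative to that median and 0.40 in normalized counts (adjusted p = 0.13).

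Counted over the 10 genes, R339Q had 5 calls against WT ID, where 21.5% of all tested genes were called: 1 higher (11.8% of all tested genes) and 4 lower (9.7%). R342C had 5 as well, where 23.3% of all tested genes were called, 1 higher (10%) and 4 lower (13.3%). S354F had 1, a fall, where 9.8% of all tested genes were called and 4.31% as lower. K365T had 5, where 32% were called, 1 higher (17.7%) and 4 lower (14.2%). R377C had 2, both lower, where 8.09% were called and 3.43% as lower, and R377H had 4, all lower, where 25.1% were called and 10.7% as lower. Q418R had 4, all lower, where 25% were called and 13.8% as lower. R448Q had 6, where 45.8% were called, 2 higher (22.8%) and 4 lower (23.1%). H455R had 5, all lower, where 23.1% were called and 10.5% as lower. WT IAA had 2, where 20.7% were called, 1 higher (9.96%) and 1 lower (10.7%). The shares in S354F and WT IAA are close to those of all genes. The median log2 fold change of the 10 was -0.52 in R448Q, -0.40 in Q418R and -0.37 in both K365T and R339Q, against -0.03 to 0.01 for all tested genes over the 11 comparisons. It was -0.09 in S354F and -0.10 in WT IAA.

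WT IAA differed from WT ID in both doxycycline and the transgene. Beside Ier3, the call in WT IAA was Spry4, with 114 and 143 normalized counts, against 221 and 199 in WT ID (-0.71 ± 0.24, limma adjusted p = 0.042). It did not hold. Leaving out any 1 of the 4 libraries ended it: it was -0.55 (limma adjusted p = 0.24) with WT IAA replicate 1 left out and -0.87 (0.072) with its replicate 2 left out. With WT ID replicate 1 left out it was -0.63 (0.20), and with its replicate 2 left out -0.79 (0.10). On the TPM scale it was -0.67 (limma adjusted p = 0.085). Primitive endoderm markers summed to 18.3 TPM in both WT IAA libraries, against 9.2 to 12.2 TPM in WT ID. They summed to 20.7 to 22.4 TPM in R339Q, the other group with Ier3 called as higher than in WT ID. They summed to 19.1 to 21.6 TPM in R342C and 18.6 to 21.7 TPM in H455R, where Ier3 had 212 and 223 and 200.3 and 248 normalized counts (log2 fold changes 0.40 and 0.43, limma adjusted p = 0.13 and 0.099). The sums were 16.6 to 19.9 TPM in S354F, 15.5 to 16.4 TPM in R377C and 12.3 to 15.2 TPM in K365T, with Ier3 at 0.49, 0.07 and -0.28. R377H, Q418R and R448Q had 8.6 to 11.1 TPM, with Ier3 at -0.04, -0.49 and -0.44. Untreated had the lowest sums, 2.6 to 4.3 TPM, and the highest Ier3 of the 12 groups. The part of these markers in the Ier3 result was not tested. The 8 listed heat shock genes summed to 3878 to 3884 TPM in WT IAA and 3290 to 3404 TPM in R339Q, against 2968 to 3016 TPM in WT ID. R448Q was higher still at 3887 to 4003 TPM. Most of the sum came from Hspd1, Hspa8, Hspb1 and Hspe1, with medians of 974, 891, 607 and 499 TPM over the 24 libraries. Hspa1a and Hspa1b had medians of 1.87 and 7.04 TPM. Whether the sum reflects handling was not tested.

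The wild-type transgene was included to assess rescue against untreated cells, and 4 of the 10 genes were lower in WT ID than in Untreated with no overlap above the expression minimum of 0.5 TPM. In WT ID, Spry2 was higher with no overlap, and the other genes above that minimum overlapped. Of all genes kept, 67.7% did not overlap in either direction between WT ID and Untreated, nor did 71% between WT IAA and Untreated. Lack of overlap by itself thus does not set these genes apart. The untreated libraries come from a table scaled separately, so TPM levels were compared by their ratio, with no test on TPM, and the 2-day treatment, its agents and any table difference cannot be told apart. Spry4 had 3.62 and 3.02 TPM in WT ID and 1.84 and 2.26 in WT IAA, against 11.8 and 14.2 in Untreated. Ier3 had 11.7 and 10.2 TPM in WT ID and 22.3 and 23.2 in WT IAA, against 40.7 and 30.9 in Untreated. Neither treated group overlapped the untreated one for these genes. Etv4 had 56.3 and 47.6 TPM in WT ID and 45.3 and 41.2 in WT IAA, against 102 and 84.4 in Untreated. Dusp6 had 13.7 and 10.9 TPM in WT ID and 12.9 and 9.54 in WT IAA, against 21.6 and 20.8 in Untreated. Both were again separate from Untreated, and for all 4 genes Untreated was the highest of the 12 groups.

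On the log2 TPM scale the median ratio of all genes was 0.19 for WT ID over Untreated and 0.20 for WT IAA over Untreated. The log2 ratio of WT ID over Untreated was -1.94 for Spry4, -1.70 for Ier3, -0.84 for Etv4 and -0.78 for Dusp6, or -2.12, -1.88, -1.03 and -0.96 relative to that median. For WT IAA over Untreated it was -2.61 for Spry4, -0.65 for Ier3, -1.10 for Etv4 and -0.91 for Dusp6. Relative to the median those were -2.80, -0.85, -1.30 and -1.11. Spry2 went the other way, with 258 and 293 TPM in WT ID and 272 and 317 in WT IAA, against 141 and 174 in Untreated (log2 ratios 0.80 and 0.90, or 0.62 and 0.71 relative to the median). At least 2-fold apart with no overlap were 2 of the 10 in WT ID (Spry4 and Ier3, both lower) and 2 in WT IAA (Spry4 and Etv4, both lower). Of all genes kept, 14.6% were so in WT ID (11.4% higher and 3.2% lower) and 19.3% in WT IAA (14.9% higher and 4.32% lower). At least 1.5-fold apart with no overlap were 5 of the 10 in WT ID, where 28.8% of all genes kept were, and 7 in WT IAA, where 33.2% were. In edgeR on the recovered reads of all 24 libraries, 7 of the 10 were called in WT ID, where 40.5% of 18671 tested genes were. Spry2 was higher (21% of tested genes), and Dusp6 (-0.95, adjusted p = 1.2e-05), Spry4 (-2.14, adjusted p = 1.0e-07), Etv4, Ier3, Spred1 (-0.28, adjusted p = 0.0043) and Etv5 (-0.26, adjusted p = 0.0054) were lower (19.5% of tested genes). In WT IAA edgeR called 7 as well, where 45.6% of tested genes were called: Spry2 as higher (23.9%), and Dusp6, Spry4, Etv4, Etv5, Fos (-0.79, adjusted p = 0.034) and Ier3 as lower (21.8%). On the TPM scale Spred1, Etv5, Fos and Dusp4 overlapped between WT ID and Untreated, and Egr1 was under the minimum. The summed levels of markers of other cells and of heat shock genes differed from Untreated too, in both directions. Primitive endoderm markers summed to 9.2 to 12.2 TPM in WT ID and 18.3 TPM in WT IAA, against 2.6 to 4.3 TPM in Untreated. Of those kept, 3 of 5 were at least 2-fold higher with no overlap in WT ID and 4 of 4 in WT IAA, Dab2 the most (log2 ratios 3.47 and 5.01), while Sox7, Foxa2 and Sox17 were under 1 TPM throughout. Trophectoderm markers summed to 122 to 138 TPM in WT ID and 162 to 169 TPM in WT IAA, against 76.0 to 83.2 TPM in Untreated, with 3 of 5 and 4 of 5 at least 2-fold higher. Heat shock genes summed to 2968 to 3016 TPM in WT ID and 3878 to 3884 TPM in WT IAA, against 4192 to 4334 TPM in Untreated. Of the 8 heat shock genes, 1 was at least 2-fold lower with no overlap in WT ID and 0 in WT IAA. That 1 was Hspa8, with means of 632 TPM in WT ID and 1350 TPM in Untreated. The part of these markers and heat shock genes in the ratios was not tested.

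**Figure D4:**
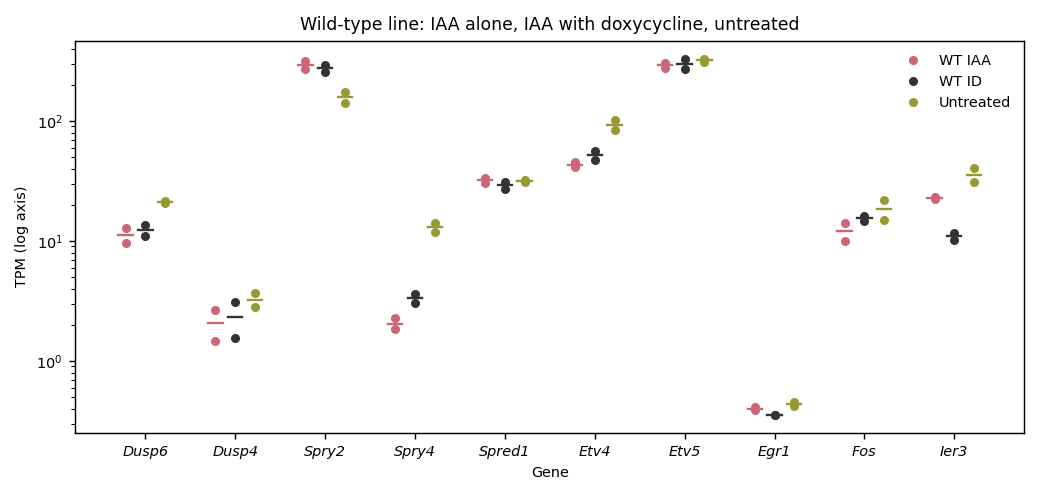
TPM on a log axis for the 10 genes in the 2 libraries each of WT IAA, WT ID and Untreated, all from the WT line, with a line at each mean. Untreated lies above both treated groups for Dusp6, Spry4, Etv4 and Ier3, and below both for Spry2, where it had 141 and 174 TPM.

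The same arginine was changed to cysteine in the R377C line and to histidine in the R377H line, and 4 of the 10 genes were higher in R377C than in R377H. Of all tested genes 19% were called in either direction and 7.88% as higher. Spry4 had 136 and 148 normalized counts in R377C, against 35.3 and 57.6 in R377H (log2 fold change 1.63 ± 0.24, limma adjusted p = 6.0e-05). Dusp6 had 234 and 250 in R377C, against 160 and 155 in R377H (0.61 ± 0.15, adjusted p = 0.0059). Spry2 had 8158 and 7700 in R377C, against 5404 and 5597 in R377H (0.53 ± 0.13, limma adjusted p = 0.0055). Etv4 had 1245 and 1447 in R377C, against 915 and 1030 in R377H (0.47 ± 0.12, adjusted p = 0.0075). The libraries of R377C and R377H did not overlap for these 4 genes, nor for 60.5% of all tested genes. The median of chromosome 11, which carries Etv4, stood 0.50 lower relative to all genes in this contrast, and with chromosomes centred Etv4 gave 0.96 (limma adjusted p = 2.0e-05). Leaving out 1 library ended 3 of the calls: Dusp6 without R377H replicate 2 (0.59, adjusted p = 0.0505), Spry2 without R377C replicate 1 (0.49, limma adjusted p = 0.059), and Etv4 without R377C replicate 2 (0.36, 0.0997) or R377H replicate 1 (0.38, 0.084).

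**Figure D5:**
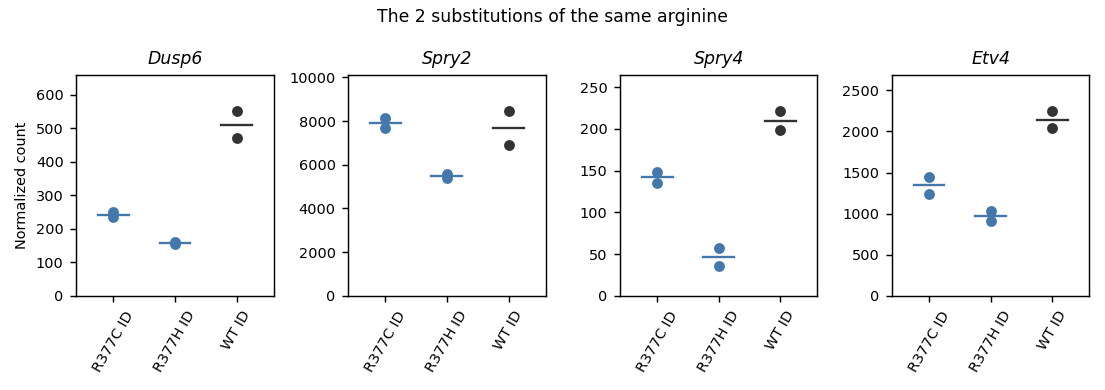
Normalized counts of Dusp6, Spry2, Spry4 and Etv4 in R377C, R377H and WT ID, with a point per library and a line at the mean. In each panel both R377C libraries lie above both R377H libraries, most widely for Spry4 with 136 and 148 against 35.3 and 57.6.

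Other genes of the pathway were read from wider lists, with the 3 largest called changes per list and comparison named. Of 12 tested ERK phosphatase, Sprouty and SPRED genes outside the 10, R448Q had 4 higher and 8 lower (median log2 fold change -0.40), where 45.8% of all tested genes were called in either direction. K365T had 1 higher and 5 lower (-0.23), where 32% were. The other mutants had 0 to 3 higher and 1 to 3 lower, where 8.09 to 25.1% were. Dusp1, a nuclear phosphatase for several MAP kinases and itself an immediate early gene, fell most in R339Q (-1.72, limma adjusted p = 5.2e-08) and R448Q (-1.09, adjusted p = 2.1e-06). It fell in 5 more mutants by 0.49 to 0.77 on the log2 scale and was not called in R377H (0.05) or Q418R (0.03). The 10 ETS and CIC repressor genes had 0 to 3 higher and 0 to 4 lower per mutant, with medians of -0.22 in R448Q to 0.13 in R339Q, where 8.09 to 45.8% of all tested genes were called over the 9 mutants. Among them Etv1, the third PEA3 gene, fell in 8 mutants. It had 1040 and 730 normalized counts in K365T, 1041 and 788 in R448Q and 988 and 1144 in R377H, against 3284 and 3096 in WT ID. The log2 fold changes were -1.87, -1.81 and -1.58 in that order (largest limma adjusted p = 3.7e-07). The 5 others called lay at -1.05 to -0.61, and R339Q did not pass (-0.36, adjusted p = 0.11). Atxn1l, whose product partners CIC, rose by 0.84 to 1.12 in R342C, K365T, R377H, Q418R and R448Q and by 0.44 in R377C. Cic itself, named outside that rule after its values were seen, was called in K365T alone of the 9 mutants (-0.22, limma adjusted p = 0.029).

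Of 31 other immediate early genes, R448Q had 6 higher and 18 lower with a median log2 fold change of -0.55, where 45.8% of all tested genes were called. K365T had 3 higher and 9 lower (-0.15, 32% of all tested genes), H455R 8 higher and 4 lower (0.19, 23.1%) and WT IAA 10 higher and 4 lower (0.16, 20.7%). R339Q had 6 higher and 7 lower (-0.12, 21.5%) and Q418R 5 higher and 7 lower (-0.06, 25%). R342C, S354F, R377C and R377H had 1 to 3 higher and 4 to 7 lower, where 8.09 to 25.1% of all tested genes were called. In R448Q the urokinase receptor gene Plaur (-1.83) and the small MAF factor gene Maff (-1.65) fell, and Myc rose (1.39). Myc (1.19) also rose in WT IAA, as did Phlda1 (1.15). Of 40 tested genes from the FGF ligands to ERK and its nuclear partners, R448Q had 12 higher and 8 lower, where 45.8% of all tested genes were called, a share close to the list's own. R377H had 11 higher and 5 lower, where 25.1% were, and R377C 1 higher and 0 lower, where 8.09% were. List medians ran from -0.06 to 0.06 over the 11 comparisons. Sos1, the exchange factor that loads RAS with GTP, rose in 8 mutants by 0.97 to 1.29, with 7140 and 7216 normalized counts in R448Q, against 2860 and 3021 in WT ID. H455R was the mutant in which it was not called, with 3272 and 3263. Fgfr2 rose in R339Q, R342C, S354F and H455R (0.83 to 1.2) and fell in R377H (-1.18) and R448Q (-1.08). The kinase genes Map2k1, Map2k2 and Mapk3, named outside that rule after their values were seen, gave 1 call, Mapk3 in R448Q (-0.26, limma adjusted p = 0.037).

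The 10 genes did not form 1 pattern over the 11 treated groups. As a description of 11 group means that share libraries and scaling, Pearson's r was 0.81 between Spry2 and Ier3, 0.63 between Spry2 and Etv4, 0.54 between Dusp6 and Spry2 and 0.52 between Dusp6 and Etv4. It was -0.82 between Spred1 and Egr1, -0.78 between Spry2 and Spred1, 0.07 between Dusp6 and Fos and -0.02 between Etv4 and Etv5. Among 12482 other genes with a mean of at least 50, the closest to Dusp6 over the same means were Abhd10 (r = 0.95), Chn2 (0.94) and Clca3b (0.93). Closest to Etv4 were Agap3 (0.97), Rab43 (0.97) and Irx2 (0.96), to Ier3 Btbd19 (0.99), Nfia (0.96) and Srxn1 (0.95), and to Spry2 Pkd1 (0.96), Plxnb1 (0.95) and Shank1 (0.95). Spred1 was closest to Clns1a (0.96), Tgs1 (0.96) and St13 (0.95), Spry4 to Abcg2 (0.88), Sec22b (0.87) and Pdap1 (0.86), and Fos to Plat (0.88) and Bpifb5 (0.87). Dusp4 was closest to Ptger4 (0.91), Neil2 (0.90) and Mrps26 (0.90), Etv5 to Ess2 (0.90), Sf3a2 (0.88) and Srek1ip1 (0.88), and Egr1 to Trpv4 (0.93), Pde4a (0.90) and Tmem30b (0.89).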

How the data were processed

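Total RNA-seq libraries of 24 mouse ESC samples were analysed from the deposited gene tables. The submitters' processing notes name Trim Galore, STAR, DESeq2 and the build mm10. Not given in the sources used here were their versions, the counting tool, the annotation and whether counting used strand. The normalized counts deposited by the authors are a signal in which each library's gene counts were divided by its size factor, and 100% of values gave whole reads within 0.001. The deposited TPM values are a separate pair of tables. The untreated libraries have their own tables, scaled separately. The tables held 0 columns of other samples.

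The genes and lists were chosen with earlier results of these data known. Log2(normalized count + 1) of 22 libraries was fitted with limma 3.58.1 in R 4.3.3 (1 coefficient per group, trended eBayes, 11 residual and 8.13 prior degrees of freedom) for the 18713 genes with a mean of at least 10. Two-sided p-values were adjusted over all genes (Benjamini-Hochberg) in each of the 11 comparisons, and genes under 0.05 were called. Each replicate is 1 library, 2 per group. Untreated cells were compared by log2 ratios of mean TPM + 0.1 over genes reaching 0.5 TPM. Alternatives were TPM, pseudocount 5, a mean of at least 1, quantile normalization, edgeR 4.0.16 and DESeq2 1.42.0 on recovered reads, only the 2 groups compared, a replicate block, centring by chromosome or by the 200 nearest genes, and leaving out each library. The test was tried on simulated data. Coordinates come from GENCODE M21 (mm10), in which 53186 symbols were found once, and promoters from RefSeq. Genes named from the wider lists are the 3 called genes per list and comparison with the largest log2 fold change and a mean of at least 50. Similar genes are the 3 with the highest r, model and clone names left out. A few genes that these rules or lists hold are not reported here. The lists were other ERK phosphatases and Sprouty or SPRED genes, ETS and CIC genes, other immediate early genes, the FGF to ERK path, heat shock genes, and markers of ESCs and 6 other fates. Replicates differed beyond counting noise in every group (chi-square per gene 6.40 to 38.9).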

Additional observations from a re-analysis of the deposited data

Results flagged for a closer look

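The R377C and R377H lines, which change the same residue, differed in 4 of the 10 genes by limma's test of the difference itself. Of all tested genes 19% were called in this contrast, 7.88% as higher in R377C. The log2 fold change of R377C over R377H was 1.63 for Spry4, 0.61 for Dusp6, 0.53 for Spry2 and 0.47 for Etv4. Leaving out 1 library could end the call for Dusp6, Spry2 or Etv4, but not for Spry4. Line and substitution cannot be told apart. Each line is represented by 2 libraries.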

How the results depend on the processing

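Of 110 pairs of gene and comparison 43 were called, and 25 of them held under all alternatives, among them all 9 Dusp6 falls in mutants and 7 of the 8 Etv4 falls. Leaving out 1 library ended 17 called pairs, and another setting ended 8. In turn 5 uncalled pairs passed on leaving out 1 library and 9 under another setting. No called pair changed direction. On TPM, 1 of the 10 was called in WT IAA, against 2, and 3 in H455R, against 5. Of the 18713 tested genes, 3294 were called on TPM in WT IAA, against 3868, and 3727 in H455R, against 4322. In S354F 2 were called, against 1, with DESeq2, with only the 2 groups in the fit, and with either form of centring. Of all tested genes, 1821 were called in S354F with chromosomes centred, against 1834 as tested. DESeq2 called 1093 as higher and 918 as lower there. At 1.5-fold in place of 2-fold, 5 were apart from Untreated in WT ID, against 2, and 7 in WT IAA, against 2, where 28.8% and 33.2% of all genes kept were. Leaving out 1 library gave 1 to 1 called in WT IAA, 3 to 5 in R339Q, 3 to 5 in R342C, 2 to 5 in H455R, and 1 to 5 apart for WT IAA over Untreated (with 1 library left in a group, its spread was taken from the others). No share of all genes is set beside the counts with 1 library left out, so they do not set the 10 apart from other genes. The cause was not tested.

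Some values that were not called in the main test changed sign under other settings. For Etv5 these were 0.018 in WT IAA (200 nearest genes), -0.069 (TPM) and -0.034 (quantile) in R377H, and -0.15 (TPM) and -0.14 (quantile) in R448Q. Relative to the TPM median of all genes, -0.094 in R377H and -0.17 in R448Q, Etv5 was 0.025 and 0.022 and kept its sign. For Fos they were -0.051 (quantile) and -0.0013 (200 nearest genes) in R342C, and 0.0050 (edgeR) and 0.011 (DESeq2) in R377C. For Ier3 they were -0.045 in R377C (quantile) and 0.011 in R377H (200 nearest genes). Leaving out 1 library gave these ranges for log2 fold changes that crossed 0, over WT ID unless stated. Dusp4 -0.69 to 0.18 in H455R, -0.34 to 1.14 in K365T, -0.86 to 0.014 in Q418R, -0.12 to 0.73 in R377C against R377H, -0.17 to 0.70 in R377C, -0.47 to 0.40 in R377H, -0.64 to 0.23 in R448Q, -0.030 to 0.84 in S354F, -0.60 to 0.27 in WT IAA. Dusp6 -0.36 to 0.048 in WT IAA. Egr1 -0.11 to 0.66 in Q418R. Etv5 -0.15 to 0.0063 in Q418R, -0.077 to 0.12 in R377H, -0.060 to 0.097 in R448Q, -0.15 to 0.0075 in S354F, -0.13 to 0.026 in WT IAA. Fos -0.19 to 0.35 in K365T, -0.25 to 0.29 in R342C, -0.61 to 0.45 in R377C. Ier3 -0.13 to 0.041 in R377H. Spred1 -0.066 to 0.037 in R377H. Spry2 -0.11 to 0.18 in R342C, -0.091 to 0.20 in R377C, -0.063 to 0.23 in WT IAA.

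Over 55 pairs of groups, deviations of same-numbered libraries correlated at -0.25 to 0.38 with a median of 0.023, and 10 pairs exceeded 0.1. Replicate numbers thus did not pair the libraries across all groups, and these values do not settle whether some groups were paired. With a replicate block the calls numbered 5 in R339Q, 1 in S354F and 6 in R448Q, and no count changed in any comparison. Without the block 21.5%, 9.8% and 45.8% of all tested genes were called in R339Q, S354F and R448Q. The share of higher calls among all genes moved on TPM to 42.7% in K365T, against 55.4%, to 26.3% in Q418R, against 44.6%, and to 70.2% in R342C, against 42.9%. It moved to 40.4% in R377H, against 57.4%, to 31.2% in R448Q, against 49.7%, and to 64.3% in R377C over R377H, against 41.5%. On TPM the median of all genes was -0.17 in R448Q and 0.11 in R377C over R377H. With 2 libraries per group and 1 line per substitution, small changes are limited by the spread between libraries and Egr1 by its low counts, and all mutant comparisons share the WT ID libraries.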
